A study of Homo sapiens with 8 samples.

Results

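The centromeric array of chromosome 8 was examined as it appears in maps of CENP-B binding from control and ERCC6L2-/- cells. Its members were all 1 kb windows of chromosome 8, counted from the first base, in which at least 1 base had a value above 0 in either map. There were 1689 such windows among 35604 in all sequences of the series. A window was called kept when both maps covered it (1164 windows, 68.9%) and control-only when ERCC6L2-/- cells had no covered base in it (525 windows, 31.1%). No window was covered in ERCC6L2-/- cells alone.

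Centromeres are the sites at which chromosomes attach to the spindle through the kinetochore. In human cells they lie on α-satellite DNA, a short AT-rich unit that is repeated head to tail and grouped into longer repeats, which themselves recur with few differences over very long stretches. CENP-B is the centromeric protein that reads this DNA directly, through a short motif called the CENP-B box that is found in some units and not in others.

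The study used U2OS cells, a human osteosarcoma line, grown in DMEM with fetal bovine serum. The labels give the groups as WT (control) and KO, the latter being clonal ERCC6L2-/- lines grown from single cells after CRISPR/Cas9 editing, so that clone and genotype cannot be told apart. ERCC6L2 is a DNA-dependent ATPase that the study examined at centromeres, and the comparison asked whether its loss changed where and how much CENP-B was bound. In each background, 3 immunoprecipitates and 1 input library were made from crosslinked chromatin digested with micrococcal nuclease.

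The values analysed here are the numbers of reads over each base that the authors deposited for the regions common to the 3 immunoprecipitates of a group. Each group therefore has 1 pooled value per base, so no replicate error could be computed and no difference below was tested. The study describes its plotted tracks as averages over replicates, but whether the deposited numbers are sums or averages is not given in the sources used here, so reads below means pooled reads of that unknown kind. Sequencing depth is unknown, and ratios were taken on the values as deposited. A base outside the listed regions of a map counted as 0, which says that it lay outside that map's regions and not that it had no reads. Per the study, called peaks were filtered by a stringent threshold on the false discovery rate before replicates were merged. Unlisted sequence therefore includes any peak that did not pass, and such peaks cannot be seen here.

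The array fell into a kept block of adjoining windows and 2 control-only blocks. The kept block ran from position 44033001 to 45197000 of GRCh38 and held all 1164 kept windows. The control-only windows followed it on the side of the long arm, as a block of 148 windows from 45197001 to 45345000 and, after a gap without coverage in either map, a block of 377 windows from 45501001 to 45878000. Mean coverage over covered bases of the kept block was 103 reads in control against 87.5 in ERCC6L2-/- cells. In control it was 95.1 reads in the first control-only block and 76.3 reads in the second. No annotated gene of GENCODE release 44 overlapped the span. The nearest annotations were a processed pseudogene 358409 bases before it and a small RNA gene 150803 bases after it.

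**Figure D1:**
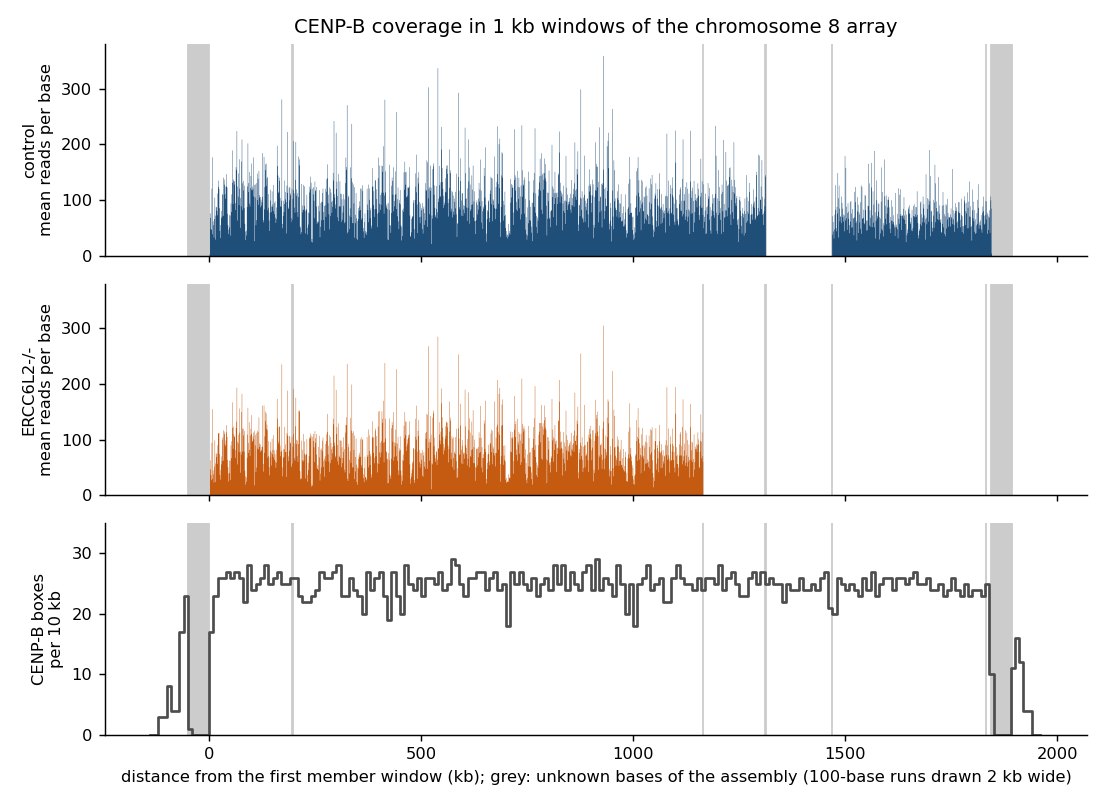
Mean CENP-B coverage (reads per base) in 1 kb windows along the chromosome 8 array in control (top) and ERCC6L2-/- cells (middle), with the number of CENP-B boxes per 10 kb below, against the distance in kb from the first covered window. Grey marks the unknown bases of the assembly, and coverage in ERCC6L2-/- cells ends at one of these marks while control coverage goes on over 148 further windows, stops, and resumes over 377 windows.

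The edges of the blocks coincided with the edges of the assembly's own segments. The centromere of this build is a model of known sequence broken by runs of unknown bases (N), and 7 such runs cut the array into 6 segments. Runs of 50000 unknown bases close it at both ends, from 43983745 to 44033744 and from 45877266 to 45927265, and the others are 100 bases long. The kept block was made of segments 1 and 2, and its last window also held the first bases of segment 3. The control-only blocks were the rest of segment 3, and segments 5 and 6 together.

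The 3 listed regions of control ended between 4 and 446 bases from a run of unknown bases. The 3 listed regions of ERCC6L2-/- cells did so by 20 to 211 bases, except at an interruption of 247 bases inside segment 2. Values had already fallen at these ends, to between 4 and 23 reads at the first and last listed bases. Control regions ran across 2 of the shorter runs, those that begin at 45196659 and 45864253. No map had coverage on an unknown base, and neither had coverage elsewhere on chromosome 8.

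The change from kept to control-only windows was abrupt in ERCC6L2-/- cells and hardly visible in control. Window means are taken over all bases of a window, covered or not, so partly covered windows have lower values. The last kept window, 45196001 to 45197000, had a mean of 73.9 reads in control against 60.8 in ERCC6L2-/- cells, with 868 and 632 covered bases. The next window had 50.1 reads in control, with 881 covered bases, and lay outside the listed regions of ERCC6L2-/- cells. The last ERCC6L2-/- region ended at 45196632, 26 bases before the unknown bases that begin at 45196659. At the far side of the first control-only block the mean of the last window was 143 reads in control, and the next window had no covered base in either map.

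Control resumed at 45501319, where the window from 45501001 had 682 covered bases and a mean of 38.4 reads over all its bases. At the outer edges, the first member window (44033001 to 44034000) was just inside the rule, with 3.01 reads in control against 2.39 in ERCC6L2-/- cells. The last one (45877001 to 45878000) had 4.57 reads in control, with 170 covered bases. The windows just outside, from 44032001 and from 45878001, had no covered base in either map.

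Segment by segment, control coverage was high in the first part of the array and lower in the last part. Segment 1 (44033745 to 44228997) had a mean of 104 reads in control against 88.8 in ERCC6L2-/- cells, a log2 ratio over shared bases of -0.24. Segment 2 (44229098 to 45196658), the longest with 967561 bases, had 103 and 87.2 reads, again a log2 ratio of -0.24. Both kept segments thus had the same ratio to 2 decimals, although segment 2 is much longer than segment 1.

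Among the segments covered in control only, segment 3 (45196759 to 45344932) had a mean of 95.01 reads, close to the kept segments. Segment 5 (45500873 to 45864252) had 76.3 reads and segment 6 (45864353 to 45877265, only 12913 bases) had 74.8 reads. In each of these 5 segments control covered at least 99.1% of the bases. Segment 4 (45345033 to 45500772, 155740 bases) lay between covered segments and had no covered base in either map.

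**Figure D2:**
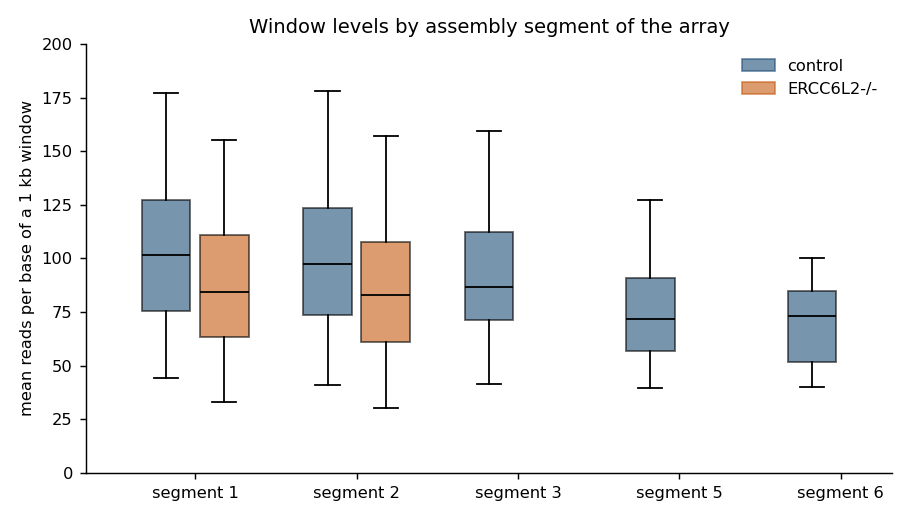
Mean coverage (reads per base) of the 1 kb windows with coverage in each assembly segment, partly covered ones included, in control (blue) and ERCC6L2-/- cells (orange). Lines are medians, boxes hold the middle 50% of windows and whiskers reach the 5th and 95th percentiles of windows, which are not replicates. Segments 1 and 2 have both maps, segments 3, 5 and 6 have control only, and segment 4 is left out because neither map covered it.

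With unlisted bases counted as 0, most of the lower summed coverage of chromosome 8 in ERCC6L2-/- cells came from the control-only windows. Control covered 1685660 bases of the array and ERCC6L2-/- cells covered 1161080. Of the bases covered in control, 68.9% (1160913) were also covered in ERCC6L2-/- cells, and only 167 bases were covered in ERCC6L2-/- cells alone. Summed coverage was 162430886 base-reads in control and 101557199 in ERCC6L2-/- cells, lower by 37.5% (log2 ratio -0.68). Control-only windows made up 70.1% of that difference, and the lower level in kept windows made up the other 29.9%. The first share is the whole control sum of windows defined by having no ERCC6L2-/- coverage. Reads that ERCC6L2-/- cells had outside the listed regions are not seen, so neither share measures lost reads. The directions of these level differences rest on the values as deposited: once each map was divided by its total, the sums gave a log2 ratio of 0.44 and the shared bases 0.88.

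A fixed limit of size repeats this split and adds no support to it. Control-only windows have a value of 0 in ERCC6L2-/- cells by definition. Any of them with a control mean above 1 passes the limit, and all did. Of the 1689 windows, 526 (31.1%) had a ratio of mean coverage plus 1, ERCC6L2-/- over control, under 0.5. Over all windows of the series this share was 44.6%. Nearly all of these windows lay outside the listed regions of ERCC6L2-/- cells, since 525 were control-only, which is 31.1% of the array against 40.3% of the series.

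Among windows covered in both maps, 1 of 1164 on chromosome 8 (0.0859%) was under the limit, against 7.28% in the series. No window of the array had a ratio over 2, against 0.424% of all windows and 0.00474% of windows covered in both. The single kept window under the limit, 45080001 to 45081000, had 34.3 reads in control against 15.0 in ERCC6L2-/- cells, 2 CENP-B boxes, and 50-base words with a median of 3 copies in the array. It was singled out after its values were seen.

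Within the kept block, coverage in ERCC6L2-/- cells was lower on the deposited scale, by a proportion that varied between windows but little between steps of 100 kb. Mean coverage over shared bases was 103 reads in control against 87.5 in ERCC6L2-/- cells, a ratio of 0.848 (log2 -0.24). Across the 1052 windows that both maps covered in full, the median ratio was 0.854, and the 5th and 95th percentiles were 0.706 and 0.932. The lowest ratio was 0.504 and the highest 0.972, so that every one of these windows was lower in ERCC6L2-/- cells on the deposited scale. The ratio was under 0.7 in 49 windows.

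Taken along the block in steps of 100 kb, the ratio stayed between 0.837 and 0.861 in 12 steps. The last step before the control-only block, from 45100001, had 99.4 reads in control against 83.1 in ERCC6L2-/- cells, a ratio of 0.837, as in the step from 44900001. Peaks and troughs lay in the same windows of both maps. Pearson's r of the log2 levels over the 1052 windows was 0.985, a description of neighbouring windows that share libraries and repeat units.

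**Figure D3:**
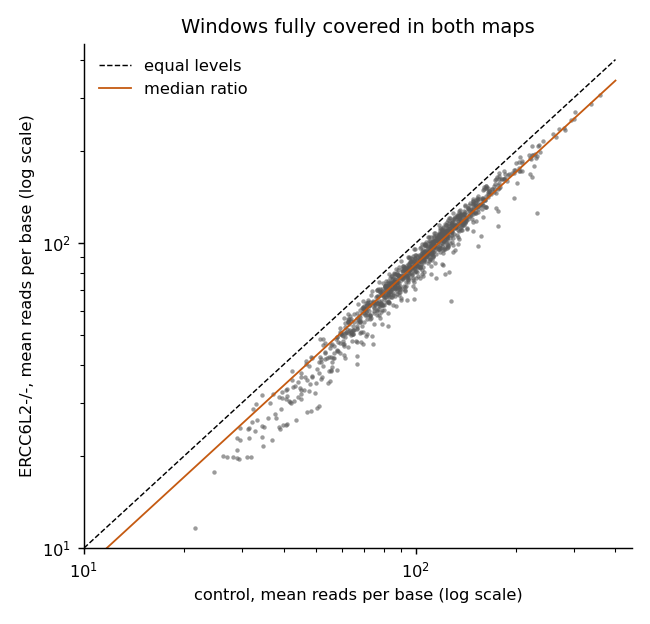
Mean coverage (reads per base, log scales) of the 1052 windows of the chromosome 8 array that both maps covered in full, control on the x axis and ERCC6L2-/- on the y axis, with a dashed line at equal levels and an orange line at the median ratio of 0.854. All points lie under the line of equal levels, and points at low control levels spread further below the orange line.

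The ratio was lower where control coverage was low. With the 1052 windows put into 4 groups of 263 by their control level, the median ratio was 0.803 in the lowest group (21.7 to 77.1 reads). It was 0.851 and 0.867 in the middle groups and 0.869 in the highest (127 to 360 reads). The windows with the most reads kept the array's usual ratio. The highest, 44962001 to 44963000, had 360 reads in control and 305 in ERCC6L2-/- cells. The next were the window from 44571001, with 337 and 285 reads, and the window from 44549001, with 303 and 269 reads.

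The lowest fully covered windows differed more from each other. The window from 44556001 had 21.7 reads in control and 11.6 in ERCC6L2-/- cells, and that from 44275001 had 24.6 and 17.8 reads. Among fully covered windows the ratio closest to equality was in the window from 44544001, with 118 reads in control against 114 in ERCC6L2-/- cells. It was followed by the windows from 44289001 (ratio 0.969) and from 44930001 (ratio 0.967), all at ordinary levels.

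Of the 3 lowest ratios among windows that both maps covered in full, 2 lay 7 kb apart and at high control levels. The window from 44952001 held the highest base of the kept block, at 1226 reads in control against 483 in ERCC6L2-/- cells, and its means were 231 and 126 reads (ratio 0.544). The window from 44959001 reached 733 reads in control against 304 in ERCC6L2-/- cells, and its means were 128 and 64.6 reads (ratio 0.504). Windows between them had ratios from 0.722 to 0.940, so the 2 low values were not a continuous stretch. Among windows that both maps covered in full, 5 pairs of neighbours had ratios under 0.7, with pair ratios of 0.610 to 0.674, and no longer run was found.

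Apart from the gap that both maps have between segments 1 and 2, the listed regions of ERCC6L2-/- cells were interrupted at 1 place in the kept block, at 44617886 to 44618132. These 247 bases hold no CENP-B box and no unknown base, and their GC content is 36.4%. Control coverage there was also very low, with a mean of 4.90 reads and a range of 1 to 28. In the 300 bases after the break, means were 102 reads in control and 43.5 in ERCC6L2-/- cells (ratio 0.425), and in the 300 bases before it 40.3 and 26.2 reads (ratio 0.650). The 3 listed regions of ERCC6L2-/- cells also held 254, 321 and 570 bases with a value of 0.

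The kept and control-only blocks were next compared for what ERCC6L2-/- values did not define, beginning with the control level. Fully covered windows had a median of 99.3 reads in the kept block (5th to 95th percentile 41.1 to 178) and 75.9 reads in the control-only blocks (40.9 to 145). The mean over covered bases was 1.26 times higher in the kept block (log2 ratio 0.34). The ranges overlapped widely, since 92.7% of control-only windows lay within the 5th to 95th percentile range of the kept windows. Of control-only windows, 76.6% were below the kept median, and 25.6% of kept windows were below the control-only median.

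Windows varied by a like proportion in both, with coefficients of variation of 42.1% and 39.1%. The highest control-only windows all lay in segment 3, with 234 reads in the window from 45226001, 208 in that from 45244001 and 204 in that from 45269001. The highest single base of the array was nevertheless control-only, at 1511 reads in segment 5.

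Segment 3, at 95.01 reads in control, had no listed region in ERCC6L2-/- cells. In the whole series the ERCC6L2-/- map had 205 listed regions of at least 10 kb, whose mean coverage had a median of 69.3 reads and a lowest value of 35.2. The control map had 151 such regions, with a median of 86.5 reads and a lowest value of 35.6.

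CENP-B boxes were equally dense in kept and control-only sequence. The box was matched by its essential bases, which leave 6 inner positions free, on both strands. The kept block held 2910 boxes, or 25.0 per 10 kb, and the control-only blocks held 1301, or 24.8 per 10 kb (log2 ratio of the densities 0.01). GC content was 39.1% and 39.2%. Every box of the 6 segments lay on the plus strand.

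Segment 4, which neither map covered, held 386 boxes, or 24.8 per 10 kb, as many as its covered neighbours. The flanks beyond the long unknown runs had 7.52 and 6.46 boxes per 10 kb and no coverage. Box density by segment ranged only from 24.01 in segment 6 to 25.5 in segment 3. The median distance between neighbouring boxes was 338 bases in segments 1 to 5.

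Nearly all boxes were letter for letter the same. The most frequent form made up 2887 of the 2910 boxes in the kept block and 1288 of the 1301 in the control-only blocks. Mean coverage at the middle of these boxes was 89.0 reads in control and 74.2 in ERCC6L2-/- cells within the kept block, and 74.2 reads in control within the control-only blocks. The few other forms had lower values. The 23 in the kept block had 25.0 reads in control and 19.7 in ERCC6L2-/- cells, and the 13 in the control-only blocks had 14.4 reads in control.

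Around the boxes the profile had the same shape in both maps and both blocks. In the kept block, control coverage was 88.5 reads at the middle of the box, fell to 73.1 reads 15 bases after it and rose to 119 reads at 72 bases after it, the lowest and highest values within 85 bases. In ERCC6L2-/- cells the same positions had 73.8, 62.8 and 101 reads. In the control-only blocks control had 73.7, 59.9 and 96.2 reads. Within 85 bases the highest value was 1.63, 1.60 and 1.61 times the lowest in these profiles. Further out, the profiles fell and rose again, with 81.3, 69.5 and 62.8 reads at -149 bases and 135, 114 and 107 reads at -266 bases. The ERCC6L2-/- over control ratio within 85 bases of the box stayed between 0.810 and 0.864, and was 0.834 at the middle.

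**Figure D4:**
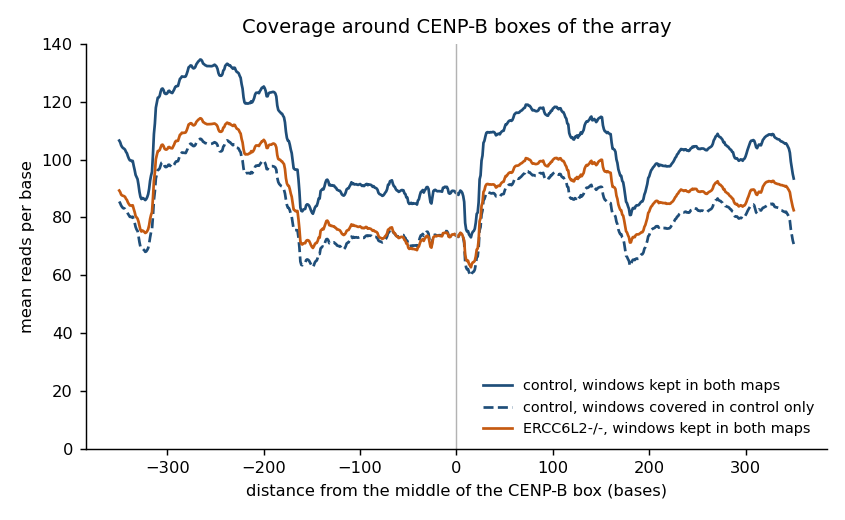
Mean coverage (reads per base) by distance in bases from the middle of the CENP-B box, over 2910 boxes in windows kept in both maps (solid lines, control blue and ERCC6L2-/- orange) and 1300 boxes covered in control only (dashed blue). The 3 curves rise and fall at the same distances, each with a low point 15 bases after the box, a high point 72 bases after it and a higher one at -266 bases.

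Boxes were spaced alike in both blocks. In the kept block, 862 boxes (29.6%) had their nearest neighbour under 250 bases away, nearly all at 171 or 172 bases. A further 1935 (66.5%) had it at 250 to 400 bases, nearly all at 338 or 339. In the control-only blocks these shares were 29.1% and 66.8%. The remaining boxes, 113 in the kept block and 54 in the control-only blocks, stood more than 400 bases from any other.

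Isolated boxes had the least coverage in both maps. Their mean was 54.6 reads in control and 42.5 in ERCC6L2-/- cells within the kept block (ratio 0.779), and 48.2 reads in control within the control-only blocks. Boxes at the middle spacing had 92.0 and 75.8 reads (ratio 0.824) in the kept block, and the closely spaced ones had 84.9 and 73.3 reads (ratio 0.864). In the control-only blocks the middle and close spacings had 77.1 and 69.4 reads in control.

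Windows with more boxes did not have proportionally more reads. In the kept block, the 10 fully covered windows without a box had 54.5 reads in control on average (SD between windows 34.6). Those with 1, 2, 3 and 4 boxes had 86.1, 102, 108 and 95.3 reads. The ERCC6L2-/- over control ratio was 0.808 without a box and 0.834 to 0.851 with boxes. In the control-only blocks, windows with 1, 2, 3 and 4 boxes had 78.2, 77.2, 87.4 and 84.9 reads in control. At each number of boxes control coverage was lower in the control-only blocks, by less than the SD between windows.

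Kept and control-only sequence were near copies of each other. Of the 50-base words of the control-only windows, 95.3% also occurred, letter for letter, in kept windows, and 94.6% of the words of kept windows occurred in control-only windows. With words of 150 bases these shares were 81.3% and 81.6%. Segment 4 was no different, with 94.2% of its 50-base words and 79.6% of its 150-base words found in the kept segments. The typical 50-base word had about 600 copies, with medians by segment of 599 to 623. Only 2.16% to 3.59% of word positions by segment held a word with a single copy.

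Few words of the array were found on other chromosomes, and almost none at the longer length. Of 50-base words, 6.66% of those in kept windows and 6.21% of those in control-only windows occurred on other assembled chromosomes. For 150-base words the shares were 0.00507% and 0%. Segments 1 and 2 had no such word, so the first share came from segment 3 bases in the last kept window. Counted only in centromeric bins, taken as 100 kb bins with at least 10 CENP-B boxes, the chromosomes that shared most 50-base words were 22 (3.08% of member words) and, equally, 13, 14 and 21 (3.08%), and no other chromosome shared a 150-base word in such bins.

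Identical words did not have identical coverage, and they had more in the kept block. For the 31859 different 50-base words present in both blocks, control coverage averaged 101 reads at the kept copies and 83.3 reads at the control-only copies, a log2 ratio of 0.27. Words whose mean was higher over their kept copies than over their control-only copies accounted for 94.4% of the control-only copies. Single copies were not compared. In ERCC6L2-/- cells the kept copies had 85.7 reads, and the control-only copies lay outside the listed regions.

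By segment, the log2 ratio of kept over control-only copies was 0.10 in segment 3, 0.35 in segment 5 and 0.40 in segment 6. With words of 150 bases it was 0.21 over all, and 0.07, 0.27 and 0.34 by segment. For the words of segment 4, where neither map had coverage, the copies in the kept block had 99.9 reads in control and 84.97 in ERCC6L2-/- cells, and those in the control-only blocks had 83.1 reads in control. How the authors' pipeline placed reads among identical copies is not given in the sources used here, so differences in binding and in read placement between copies cannot be told apart.

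The longer repeats of the array differed along its length. A 50-base word of segment 1 recurred exactly 1356 bases on at 13.1% of positions and 1193 bases on at 7.82%. In segment 2 the same distances led, with 10.6% and 11.2%, followed by their sum of 2549 bases with 6.70%. Segment 3 had 1193 bases (9.47%), 1356 bases (7.91%) and then 1868 bases (7.32%), a distance that had 7.34% in segment 1 and 5.38% in segment 2. In segment 5 the leading distances were 1868 (15.8%) and 1869 bases (13.4%).

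Windows sorted by repeat length had different control levels. In the kept block, 181 windows with at least 50% of positions in the 1193-base repeat had 124 reads in control, and 182 windows of the 1356-base repeat had 122 reads. The 146 windows of the 1868 or 1869-base repeat had 89.1 reads, and 94 windows in which the combined 2549-base distance led had 104 reads. The same repeat lengths ordered the control-only windows in the same way, with 124 reads in 15 windows, 105.3 in 42 windows and 79.0 in 204 windows. Windows of the 1868 or 1869-base repeat made up 12.9% of the fully covered kept windows and 40.5% of the control-only windows. The largest class in both blocks had none of these repeat lengths. It held 526 kept windows (46.6%), with 94.3 reads in control, and 239 control-only windows (47.4%), with 78.4 reads. The ERCC6L2-/- over control ratio in kept windows was 0.878 for the 1193-base, 0.862 for the 1356-base and 0.825 for the 1868 or 1869-base repeat.

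The level of a window also went with how often its words recur. Kept windows whose 50-base words had a median of 500 copies or more (1015 windows) had 109 reads in control and 94.7 in ERCC6L2-/- cells, a ratio of 0.855. In the 69 windows with 100 or more but under 500 copies these values were 56.4 and 43.95 reads (ratio 0.773). In the 45 windows with under 100 copies they were 48.3 and 35.4 reads (ratio 0.717). In the control-only blocks the same classes had 86.04, 59.8 and 45.3 reads in control, in 441, 47 and 16 windows. The part of copy number, read placement and box content in these differences was not tested.

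Set beside the other chromosomes on the deposited scale, the array had the highest log2 ratio over shared bases and a middling share of bases kept. Among 21 chromosomes its ratio was -0.24, with chromosome 4 next and equal to it at 2 decimals. The median of the others was -0.60 with a lowest value of -1.64. The lowest values, those of chromosomes 3, 15 and 18, rested on only 8821, 15163 and 6202 shared bases, against 1160913 on chromosome 8. Chromosomes 5 and 19 were nearest to it in the share of control bases kept, with 65.3% and 63.5%, and had log2 ratios of -0.62 and -0.40. Chromosomes 22, 13, 14 and 21, which share most words with it, kept 26.1%, 32.9%, 34.3% and 41.3% of their control bases, with log2 ratios of -0.28, -0.30, -0.31 and -0.31.

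In share kept, chromosome 8 ranked 6th of the 21. The SD of the log2 ratio over its fully covered windows was 0.13, within the range of 0.11 to 0.32 on the 16 other chromosomes with at least 100 such windows. Dividing each map by its total adds 1.12 to every log2 ratio, which leaves the order but makes the value of chromosome 8, then 0.88, the farthest from 0 in place of the nearest. No error is attached to these values, so neighbours in the order cannot be separated.

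**Figure D5:**
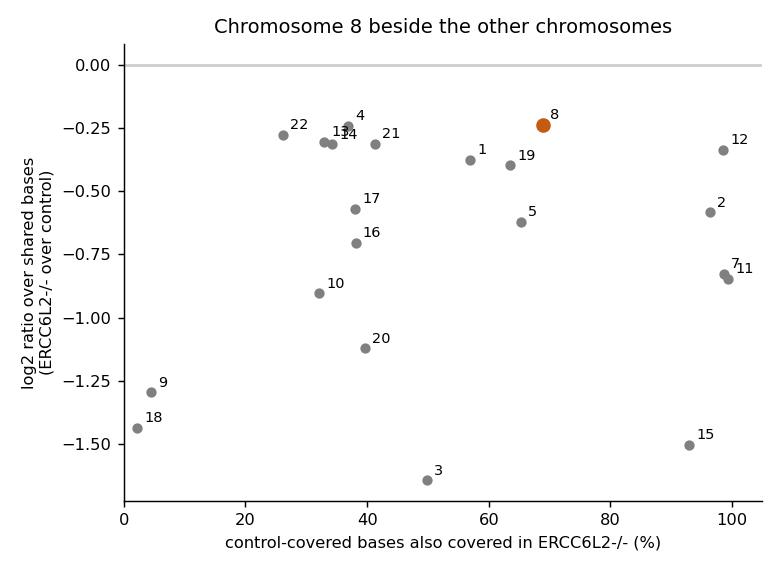
Log2 ratio of mean coverage over bases that both maps covered (ERCC6L2-/- over control, y axis) against the percentage of control-covered bases also covered in ERCC6L2-/- cells (x axis), 1 point per chromosome, labelled by its number. Chromosome 8 (orange) has the highest log2 ratio, -0.24, at 68.9% of bases kept, and all chromosomes lie below 0 on the deposited scale.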

How the data were processed

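Per the labels, CENP-B ChIP-seq libraries were made from 3 control (WT) and 3 ERCC6L2-/- (KO) U2OS samples, with 1 input each, not analysed here. The authors used FastQC for read quality, Trim Galore for trimming, Bowtie2 for mapping and MACS2 for peaks. The submitters' processing notes give these steps and name GRCh38 (hg38). Per the study, peaks were filtered by a stringent threshold on the false discovery rate, and those of a group were merged with MSPC. Versions, treatment of duplicates, placement of multi-mapping reads and scaling are not given in the sources used here. The deposited values, 1 coverage signal per base and group in whole reads, carry no depth or replicate error. The columns of per-sample values left out numbered 0.

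Coverage was read per base with Python 3.11.15, numpy 2.4.6, pandas 2.3.3 and numba 0.67.0, and drawn with matplotlib 3.10.9. Window calls used mean coverage plus 1, with limits of 0.5 and 2. Words were matched on both strands of the whole genome. Classes, calls and box search were tested on simulated data. Regions named were runs of at least 5 windows, windows at each change of class, and the 3 highest and 3 lowest kept windows by control mean and by ratio. The highest control-only windows and the window under the call limit were added after seeing values. Members and lists were chosen with earlier results of these data known. Alternatives varied the minimum reads, window size, covered share, scaling and a cap at 760 reads (the 99th percentile).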

Additional observations from a re-analysis of the deposited data

How the results depend on the processing

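With at least 10 or at least 50 reads asked of a covered base, the share of control bases kept moved from 68.9% to 68.0% and 63.7%. The log2 ratio of sums moved from -0.68 to -0.679 and -0.709. That over shared bases moved from -0.24 to -0.236 and -0.212, and the control level of kept over control-only windows from 0.34 to 0.32 and 0.24. A cap at 760 reads gave -0.677 and -0.237 for the sum and the shared bases. Division by total coverage turned the direction of both, to 0.44 and 0.88. Windows of 200 bases, and leaving out 10 kb at each change of class, gave 0.337 and 0.338 for the control level. Over all settings, 12 values moved beyond a 95% binomial interval (or 1.5 times for counts), 2 turned direction and 17 stayed within it. The last group holds the number of control-only windows (524 to 543) and the box densities (log2 0.009 to 0.047). For coverage the interval takes each base-read or base as an independent trial, although a read spans many bases. It is therefore too narrow to measure the error of counting reads. The window calls numbered 525 after division by totals and 524 with a pseudocount of 10, both chosen after seeing the data. Nearly all called windows are control-only, so the class rule largely fixes these counts.

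No paired analysis was possible because each group has 1 pooled value per base and no replicate columns, so leaving out a replicate and the replicate block gave no value. Without depth or replicates, small differences in level cannot be separated from sampling.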
